A study of Mus musculus with 2 samples.

Results

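The models described here are mouse heart transcripts that join annotated splice sites in an order no annotated transcript has, and that were read again in a separate library. A model was a member when the authors classed it NIC, their class for known splice sites in a new combination, in both libraries. Further, it had to have more than 1 exon, the same chromosome, strand and introns in both libraries, and a count of at least 5 in each. There were 901 members in 669 genes, among 113872 multi-exon intron chains listed in either library. Members were thus chosen by their own counts, and those counts are given as a description. The labels describe heart tissue of male B6CASTF1/J mice, the F1 hybrid of a laboratory strain and a CAST strain, at 14 days of age, and name no treatment. The only group, heart, holds 2 libraries, replicate 1 and replicate 2, each begun from 2 µg of total RNA. Both carry 1 donor label. Their tissue samples are numbered 03 and 04 and each is described as 3 males, and whether hearts were pooled is not stated. The description of both libraries, however, names tissue sample 03 and an identical pair of cDNAs. The SDs and p-values therefore measure the spread or counting error between these libraries, which may be technical.

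Before translation, introns are cut out of a primary transcript at a donor site at their 5′ edge and an acceptor site at their 3′ edge. A gene yields different messenger RNAs when an exon is skipped, an intron is kept, a neighbouring site is used, or another first or last exon is joined. Heart muscle is known for extensive alternative splicing of genes for the contractile apparatus, calcium handling and mitochondria. A stop codon well upstream of the last exon junction is known to mark many messengers for nonsense-mediated decay, a pathway that degrades them.

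Replicate 1 held 1107678 counts and replicate 2 1110707 counts. All 8 cardiomyocyte markers were detected in both, from 81 and 76 counts for Ryr2, the calcium release channel, to 22068 and 24632 for Myh6, the α cardiac myosin heavy chain. Replicate 1 listed 14692 NIC models and replicate 2 listed 16240, of which 5480 chains were in both. Of these models, 69.0% in replicate 1 and 70.3% in replicate 2 had 1 count. A NIC chain not listed in the other library had at most 7 counts.

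Sequences of the bases on which members differed from annotated transcripts are shown first, because most members of the short-distance kinds rest on a handful of bases. All were read 5′ to 3′ from the GENCODE M21 transcripts on GRCm38 (mm10), with 12 exonic bases on either side in lower case. Capitals mark the bases that the member kept or left out. The first set shows the annotated gaps that members of the antizyme genes and Nadk2 lack, at chr10:80828292-80828295 and chr10:80828295-80828295 (Oaz1), chr9:65686269-65686272 (Oaz2) and chr15:9100146-9100146 (Nadk2), all on the plus strand. The members kept the bases in capitals.
Oaz1, gap of 4: cctcggtggtgcTCCTgatgtccctcac
Oaz1, gap of 1: cggtggtgctccTgatgtccctcac
Oaz2, gap of 4: cctctgtggtgcTCCTgatgcccctcac
Nadk2, gap of 1: gacggcccatggGgagaagcagaag

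The next set shows very short coding exons that members skipped, and longer ones of the heart genes Dnm1l, Trdn and Atp2a2. They lie at chr9:25265302-25265306 (Sept7, plus strand), chr1:135803282-135803285 (Tnni1, plus), chr10:60299042-60299046 (Psap, plus), chr11:107320793-107320800 (Pitpnc1, minus), chr12:69820940-69820942 (Map4k5, minus) and chr2:91124275-91124277 (Mybpc3, plus). The Dctn1 stretch holds 2 exons of 39 bases in all between chr6:83183936-83186445 (plus). The longer exons are at chr16:16318445-16318477 (Dnm1l, minus), chr10:33158246-33158278 (Trdn, plus) and chr5:122491681-122491785 (Atp2a2, minus).
Sept7: gcggcaccatggTTTGTcaaccgaagaac
Tnni1: catgccggaagtTGAGaggaaatccaag
Psap: tgcacatggtagGAAGGcaacccaaggaa
Pitpnc1: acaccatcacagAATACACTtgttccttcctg
Map4k5: tgtcattatcagAAGgaaaaacctttc
Mybpc3: gatgagtggcagCAAgtacatcttcga
Dctn1: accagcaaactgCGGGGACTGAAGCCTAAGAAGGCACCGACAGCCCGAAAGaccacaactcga
Dnm1l: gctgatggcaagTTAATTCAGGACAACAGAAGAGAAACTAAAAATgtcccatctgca
Trdn: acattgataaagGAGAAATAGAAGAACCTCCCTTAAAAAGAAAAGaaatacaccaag
Atp2a2: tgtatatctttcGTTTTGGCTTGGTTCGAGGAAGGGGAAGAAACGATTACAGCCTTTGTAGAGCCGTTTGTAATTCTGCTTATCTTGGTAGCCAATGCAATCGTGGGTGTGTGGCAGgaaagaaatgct

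The last set shows pairs of acceptor sites 3 bases apart, the most frequent distance. The capitals are the 3 bases between the acceptors, at chr14:54942002-54942004 (Myh6, minus strand), chr16:4493878-4493880 (Srl, minus), chr5:33248684-33248686 (Ctbp1, minus), chr10:81565472-81565474 (Aes, plus) and chr8:11530425-11530427 (Cars2, minus). The Myh6, Srl and Ctbp1 members included them and the Aes and Cars2 members left them out.
Myh6: attggtgccaagCAGaagatgcacgac
Srl: caggacaagcagAAGaggtggaggatg
Ctbp1: ggctgcctacagCAGgtaccctccagg
Aes: tccatcatccgaCAGcagctccaggct
Cars2: ctgcagagccagCAGgtgactctgaca

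Members took 29525 counts in replicate 1 and 31733 in replicate 2, which was 2.67% and 2.86% of all counts and 56.9% and 56.4% of all NIC counts. A member had a median of 11 counts in each library and at most 3437 and 3935. The 10 most abundant members held 39.9% and 39.6% of member counts. They were Myh6 models 1 and 2, Oaz1 model 1, Srl model 1, Idh3b model 1, Oaz2 model 1, Phb2 model 1, Tmed2 model 1, Mpc1 model 1 and Ctbp1 model 1, where models of a gene are numbered by their summed count. At the edge of the rule, 162 members had a lower count of exactly 5, with a median summed count of 12, and 235 chains stayed out with a lower count of exactly 4 and a median sum of 10.

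A member made up a median of 11.2% of its gene's counts, with a median SD of 1.43 percentage points between the libraries. It reached at least 50% in 61 members and at least 10% in 487, and stayed under 1% in 72. In 236 members of 191 genes the member had more counts than any annotated transcript of the gene in both libraries, and in 43 of these no annotated transcript had a count in either library. Members of 69 genes together held at least 50% of the gene's counts in both libraries. Of these genes, 25 had at least 100 counts in each library.

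By class, 128 members skipped annotated exons through an unannotated junction, 29 kept an annotated intron of at least 50 bases, and 6 lost an annotated gap of fewer than 50 bases. The other 738 paired junctions in a new way, 635 of them from annotated junctions alone and 103 with an unannotated junction. Pairings were not free of left-out exons. Against the annotated transcript sharing most introns, exons left out inside the gene were the only difference in 45 of the skips and 46 of the 635. Median shares of the gene were 7.18% for skips, 7.08% for retentions, 21.5% for small-gap losses and 12.5% for pairings.

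**Figure D1:**
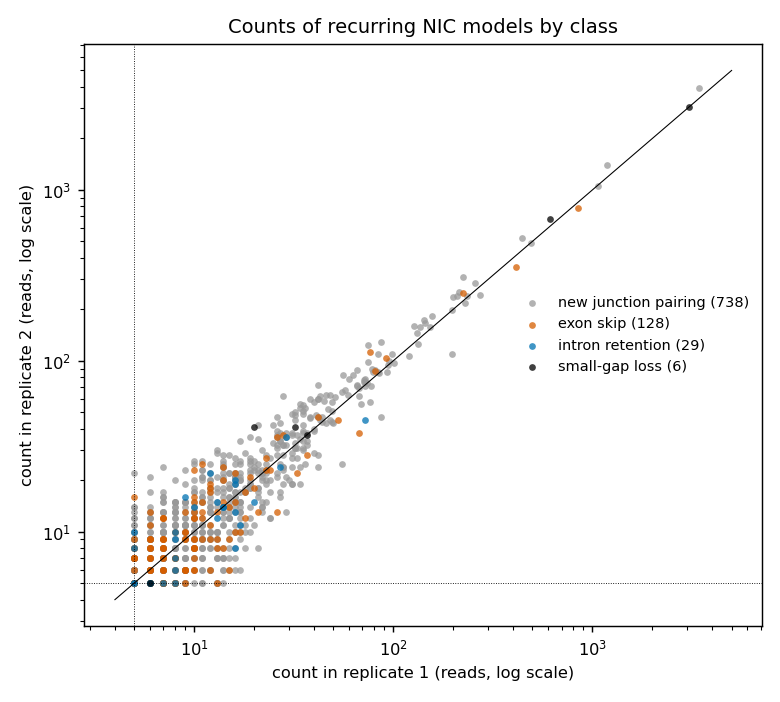
Count of each of the 901 members in replicate 1 (x, reads, log scale) and replicate 2 (y, reads, log scale), coloured by class, with the number of members in the legend. The diagonal marks equal counts and the dotted lines the minimum of 5; points spread along the diagonal up to 3437 and 3935 counts.

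Measured against the annotated transcript sharing most introns, 397 members differed at the 5′ end, 314 inside, 131 at the 3′ end, 54 in several places, and 5 shared no intron. Members differing at the 5′ end had a median share of 12.6%, those at the 3′ end 13.9%, those inside 9.87% and those in several places 3.84%. Of the 670 members made of annotated junctions alone, 612 could be cut into 2 runs that each stand in an annotated transcript, 55 needed 3 runs and 3 needed more. In 663 of the 670 the first intron was also the first intron of an annotated transcript and the last intron the last of one. No member stood in 1 run, so 2 runs were the minimum. Of the 635 pairings, 580 needed 2 runs, a first run of annotated introns followed by a run that completes the chain. In a retention or small-gap member both runs can come from 1 annotated transcript, parted by the kept intron or gap.

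**Figure D2:**
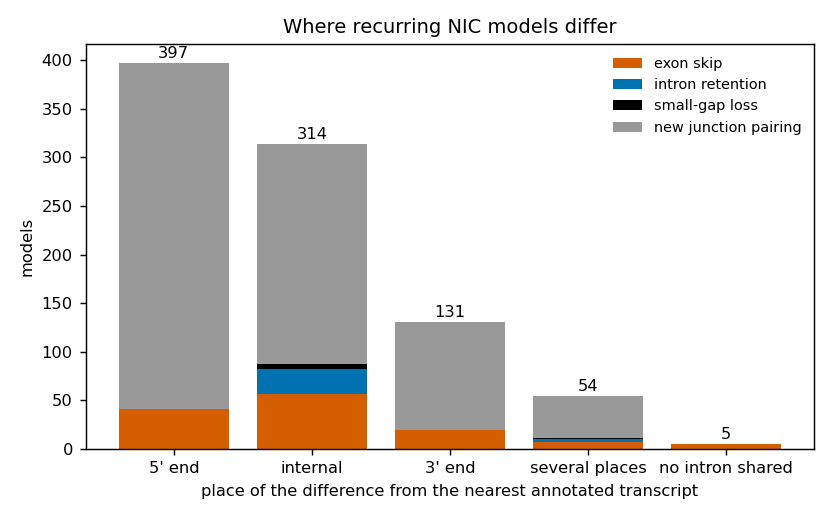
Number of members by where they differ from the nearest annotated transcript, stacked by class. The 5′ end holds 397 members and the interior 314, and retention and small-gap members lie inside or in several places.

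The label of known splice sites did not hold for all members. In 826 members every site was annotated as an intron boundary of the same gene, and in 4 a site belonged to another gene. In 71 a site was no annotated intron boundary at all. The 75 members with such sites all lay in the pairing class, and their median share was 1.72%, against 12.2% in the others. With at least 5 counts in each library, a member can have so low a share only in a deeply read gene. The groups were not matched for gene depth, so these medians do not compare how often the sites are used. They used 70 distinct positions in 41 genes, 34 acceptors and 36 donors. Of the donors, 12 lay exactly 4 bases from an annotated donor of the gene, and of the acceptors 7 lay 3 bases and 4 lay 2 bases from an annotated one. Myh6, with 22068 and 24632 counts, had 18 such members, Hnrnpk and Atp2a2 5 each, and Coro6 and Eno3 3 each.

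Idh3b model 1, of a subunit of the NAD-dependent isocitrate dehydrogenase of the tricarboxylic acid cycle, had 849 and 781 counts in replicates 1 and 2, against 53 and 64 for the highest annotated transcript. It was 82.8% of Idh3b counts in replicate 1 (exact Clopper-Pearson 95% interval 80.4 to 85.1) and 81.8% in replicate 2 (79.2 to 84.2). The exon it skips, 171 bases at chr2:130279556-130279726, belongs to a transcript annotated as a nonsense-mediated decay target, and its reading frame gave 380 residues, against 384 for the annotated protein. Both libraries thus gave the member far more counts than any annotated Idh3b transcript.

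Mpc1 model 1, of the mitochondrial pyruvate carrier, had 413 and 355 counts, against 1 and 4 for the highest annotated transcript, and made up 96.7% ± 0.353 of Mpc1 counts (SD, n = 2). It skips 81 bases at chr17:8293415-8293495 that are not inside an annotated coding sequence. The frame read from an annotated start codon closed after 42 residues, against 85 in the annotated protein with the most counts, more than 50 bases before the last junction. Trim55 model 1, of a muscle RING-finger protein of the sarcomere, had 92 and 104 counts, against 45 and 63 for the nearest annotated transcript. It leaves out a coding exon of 288 bases at chr3:19674254-19674541, and the reading frame then gave 449 residues, against 545. At this exon 64.8% and 59.1% of junction counts were skips, so inclusion and skipping were both well covered.

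Dctn1 model 1, of the p150 subunit of dynactin, the partner of the dynein motor, had 81 and 87 counts, against 45 and 46 for the highest annotated transcript. It leaves out 2 coding exons of 39 bases together, printed above, the shorter of 18 bases. The junctions flanking these exons had 0 counts in both libraries, as for the very short exons described below. Slc27a1 model 1, of a fatty acid transporter, had 53 and 45 counts, against 31 and 39 for the highest annotated transcript, and gave an annotated protein, its skipped exon lying outside the coding sequence. Card19 model 2 had 67 and 38 counts, 23.8% ± 4.19 of its gene. Higd1a model 1, of a hypoxia-induced mitochondrial protein, had 42 and 47 counts, against 549 and 537 for the main annotated transcript, and kept the annotated protein. Skips with low shares of the gene were found in deeply read genes, among them Myh6 model 3 with 76 and 112 counts (0.400% ± 0.078 of Myh6, n = 2).

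Among other heart genes, Dnm1l model 1, of the dynamin-related protein that divides mitochondria, had 33 and 22 counts and lacked the 33-base exon printed above, which was skipped in 71.4% ± 9.08 of junction counts (SD, n = 2). Trdn model 1, of triadin at the calcium release complex, had 10 and 15 counts and lacked another 33-base exon, skipped in 7.10% ± 0.986. Atp2a2 model 3, of the calcium pump SERCA2, had 7 and 12 counts and lacked the long exon printed last in the second set, skipped in 0.202% ± 0.00297. Between these 3 genes the skip level thus spanned a wide range, with member counts of 7 to 33 in a library. Counts on one flanking inclusion junction in replicates 1 and 2 were 13 and 17 for Dnm1l and 307 and 307 for Trdn. For Atp2a2 they were 5502 and 6855.

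The 128 skip members held 124 distinct skipping junctions. Of these, 108 passed over 1 exon, 11 over 2 and 5 over 3 or more, with 3 to 1599 annotated bases left out and a median of 115.5. The length was divisible by 3 in 63 of the 124 (50.8%) and in 53 of the 90 inside a coding sequence (58.9%). Of the 9299 annotated internal exons of the genes with members, 41.4% were divisible by 3, and 42.8% of the coding ones. These exons were taken singly, whereas a skipped length is the sum over all exons passed over. This is a description, since the junctions were chosen by count. The skip percent, the skipping junction's counts over those plus the mean of the 2 flanking inclusion junctions, had a median of 10.7% and ran between 0.176% and 100%. It was above 50% in both libraries for 31 junctions and under 5% in both for 32. Of the 31, 11 had a shortest skipped exon of up to 21 bases, and 8 of these had no flanking count in either library. The other 20 had longer exons.

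**Figure D3:**
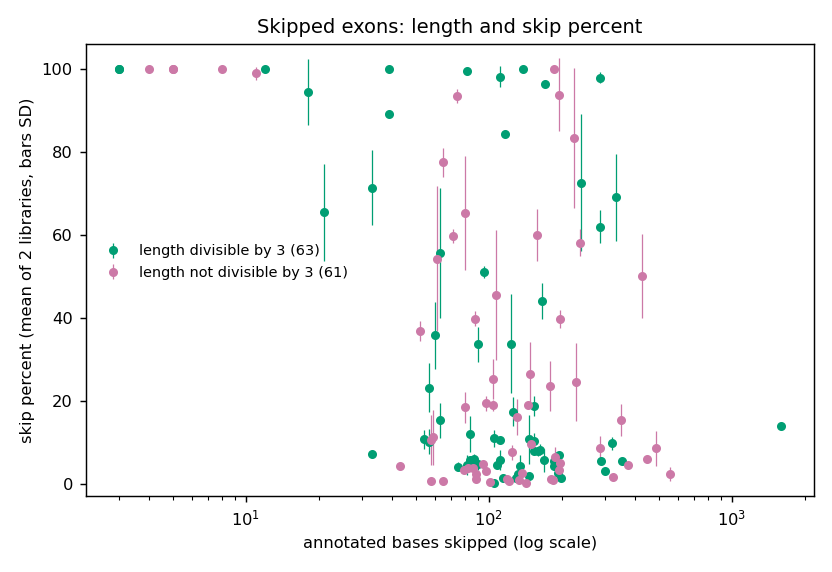
Annotated bases left out (x, log scale) against skip percent (y, mean of 2 libraries, bars SD) for the 124 skipping junctions, coloured by whether the length is divisible by 3. Skips of up to 12 bases sit at or near 100%, and longer ones spread over the whole range.

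The shortest skipped exons formed a group of their own, and for these no count showed the exon. Sept7 model 1, of a septin that forms cytoskeletal filaments, had 223 and 249 counts, against 0 for every annotated multi-exon transcript, and was 93.7% of Sept7 counts in replicate 1 (interval 89.8 to 96.4) and 90.9% in replicate 2 (86.8 to 94.0). Its 5-base exon had 0 counts on both flanking junctions in both libraries. Tnni1 model 1, of slow skeletal troponin I, which the young heart also expresses, had 37 and 28 counts and lacked a 4-base exon. Mybpc3 model 1, of cardiac myosin binding protein C, had 11 and 12 counts and lacked exons of 3, 9 and 3 bases. Psap model 1 had 18 and 17 counts, Map4k5 model 1 had 28 and 37, and Pitpnc1 models 1 and 2 had 14 and 8 and 7 and 6. All of these exons had 0 flanking counts in both libraries. Against the annotated transcript sharing most introns, the Map4k5 member differed by an acceptor 3 bases away. It is therefore also counted with the acceptor members below.

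Pairing members left out very short exons too. Phb2 model 1, of the mitochondrial prohibitin 2, had 489 and 492 counts and lacked a 6-base exon at chr6:124716425-124716430 of the nearest transcript, which had 0 and 0 counts. The flanking junctions of that exon had no count in replicate 1 and 2 in replicate 2. Uchl3 model 1, of a ubiquitin hydrolase, had 76 and 57 counts and lacked a 12-base exon, while the flanking exons gained 14 bases. In all 5 Hnrnpk members, of an abundant RNA-binding protein, a 16-base exon at chr13:58393853-58393868 was absent and the exon before it was 16 bases longer, through a donor that is not annotated. Its unannotated junction had 538 and 630 counts over all models, against 1 and 0 for the annotated junction on one side of the 16-base exon. Across all genes with at least 10 counts in each library, 42 of 43 annotated internal exons of up to 10 bases with at least 10 junction counts had no inclusion count (97.7%). The figure was 28.0% for exons of 11 to 27 bases, 2.58% for 28 to 100 bases and 1.69% above that. The cause was not tested.

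The small-gap losses belong to ornithine decarboxylase antizymes and to the mitochondrial NAD kinase Nadk2. Antizymes are known to be translated through a +1 ribosomal frameshift at a UGA stop codon, and their annotated coding sequence jumps over bases there. Oaz1 model 1 had 3040 and 3062 counts, against 0 for every annotated multi-exon transcript, and was 97.0% of Oaz1 counts in replicate 1 (interval 96.3 to 97.5) and 96.5% in replicate 2 (95.8 to 97.1). Oaz2 model 1 had 610 and 675 counts, against 0, and was 90.6% (88.2 to 92.7) and 89.0% (86.6 to 91.2). The gap of 4 in Oaz1 and that in Oaz2 are the same 4 bases and the printed stretches of 28 bases differ at 2 positions.

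In both genes the bases TCCT are followed by ga, so a model that keeps them reads TGA where the annotated gap removes it. Read without a frameshift, the frame closed after 68 residues in Oaz1 model 1, against 227 annotated, and after 32 in Oaz2 model 1, against 189. Oaz1 models 2 to 4 had 37 and 37, 20 and 41, and 6 and 5 counts, and with a skip member the 5 Oaz1 members held 99.2% and 99.3% of Oaz1 counts. Nadk2 model 1 kept 1 base and had 32 and 41 counts, against 30 and 36 for the highest annotated transcript. All 6 small-gap members therefore had a stop codon more than 50 bases before the last junction when read in 1 frame.

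The 29 retention members held 31 introns of 82 to 1483 bases, with a median of 280. Over the 29 distinct introns, models keeping the intron took a median of 21.4% of the counts that either kept or spliced it, above 50% in both libraries for 4 and under 5% in both for 10. Map7d1 model 3, of a microtubule-associated protein, had 72 and 45 counts and kept a 96-base intron at chr4:126237060-126237155, which stayed in 58.8% and 51.4% of counts. Srsf5 model 1, of an SR splicing factor, had 16 and 20 counts and kept 1229 bases, in 36.0% and 48.3%. Actg1 model 1, of cytoplasmic γ-actin, had 20 and 15 counts and kept 142 bases. Card19 model 3 had 27 and 24 counts. Of the 29 distinct introns, 19 lay wholly in bases that are annotated as exonic in the same gene. The introns of Map7d1, Srsf5, Actg1 and Card19 named here were among them.

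Some retention members were a small part of a deeply read gene. Acaa2 model 1, of the mitochondrial 3-ketoacyl-CoA thiolase, had 29 and 36 counts, against 2918 and 2899 for the main annotated transcript. Tnnc1 model 1, of cardiac troponin C, had 16 and 13 counts, against 8216 and 7148, and its 601-base intron was kept in 0.204% and 0.234% of counts. Myh6 model 12 had 16 and 19 counts and a 397-base intron kept in 0.329% and 0.313%. The gene counts behind these shares were at least 3078 in each library.

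Over all classes, members that differed from an annotated transcript by 1 splice site were common, 133 by an acceptor and 228 by a donor. The acceptor lay 3 bases away in 57 members of 49 genes. The 3 bases, which end at the downstream acceptor and so carry the AG of that site, could be read in 56 and were CAG in 40, AAG in 9, TAG in 4 and GAG in 3. Use of the member's acceptor over both acceptors of the pair had a median of 29.1% and ran between 0.175% and 100%. Donors showed no such peak, with 1 member at 3 bases, 8 at 4 bases and a median distance of 322.5 bases. The first intron was included, so another first exon joined to the same acceptor counts as another donor. Among members whose only difference lay inside the gene, 39 had another donor, at a median distance of 18 bases. In the same setting 74 had another acceptor, at a median of 3 bases.

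**Figure D4:**
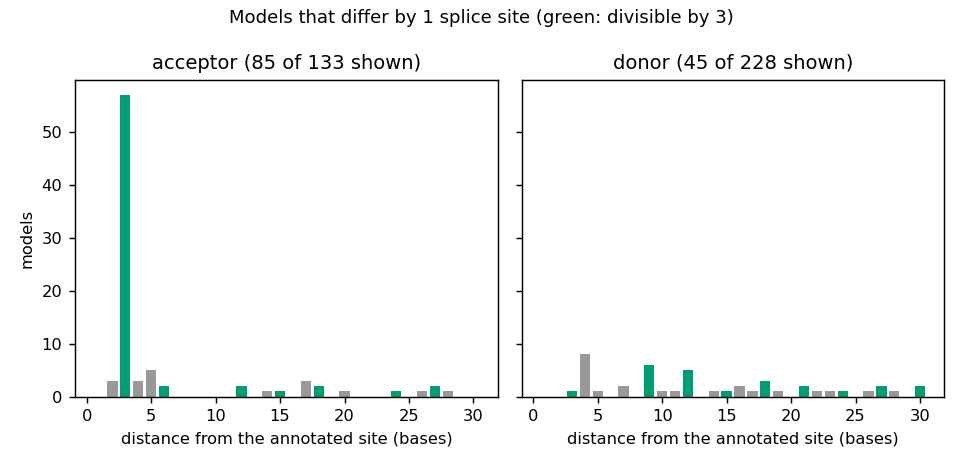
Number of members by distance of the differing acceptor (left) or donor (right) from the annotated site, in bases, for distances up to 30, which hold 85 of 133 acceptor and 45 of 228 donor members. The bar at 3 bases holds 57 acceptor members and 1 donor member.

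Myh6 model 1 was the most abundant member. It had 3437 and 3935 counts, against 7609 and 9145 for the main annotated transcript, from which it differed by the 3-base CAG printed above at the acceptor of the last intron. Its protein had 1939 residues, against 1938. Myh6 model 2 differed by the same acceptor from another annotated transcript, with 1065 and 1048 counts, against 2278 and 2442. This acceptor was used in 30.4% ± 0.516 of the counts at the pair (n = 2). The other 22 Myh6 members each held between 0.0260% and 0.400% of Myh6, and 20 of the 24 had an unannotated junction.

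Srl model 1, of sarcalumenin, a calcium-binding protein of the sarcoplasmic reticulum, had 1184 and 1398 counts, against 159 and 177 for the highest annotated transcript. It included AAG at the acceptor of the first intron, which was used in 89.9% ± 0.488 of counts. Ctbp1 model 1, of a transcriptional co-repressor, had 256 and 286 counts, against 121 and 127, and used its acceptor in 82.4% ± 2.81. Aes model 1, of a Groucho-family co-repressor, had 85 and 85 counts and used the downstream acceptor in 7.62% ± 0.363. Cars2 model 1, of mitochondrial cysteinyl-tRNA synthetase, had 72 and 75 and used it in 82.8% ± 1.61. Acceptors 3 bases apart thus ranged from minor to dominant.

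Tmed2 model 1, of a cargo receptor of the secretory pathway, had 445 and 525 counts, against 180 and 166 for the highest annotated transcript. Ndrg2 model 1 had 272 and 242 counts, against 775 and 745, and kept an annotated protein while its first intron began at another donor. Eno1 model 1, of the glycolytic enzyme α-enolase, exchanged an internal exon for another of the same length and had 234 and 240 counts, against 70 and 104. Gbe1 model 1, of the glycogen branching enzyme, had 78 and 90 counts, against 2 and 1, and was 93.2% ± 2.10 of its gene. Its intron was placed 4 bases away from the annotated one with the same length, and the spliced bases around it were identical, so that member and annotated transcript had the same sequence there. The same held for Mta1 model 1, with 14 and 7 counts and a displacement of 5 bases. With Phb2, Oaz1, Mpc1 and Uchl3, Gbe1 was among the 5 largest shares in genes with at least 50 counts in each library.

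**Figure D5:**
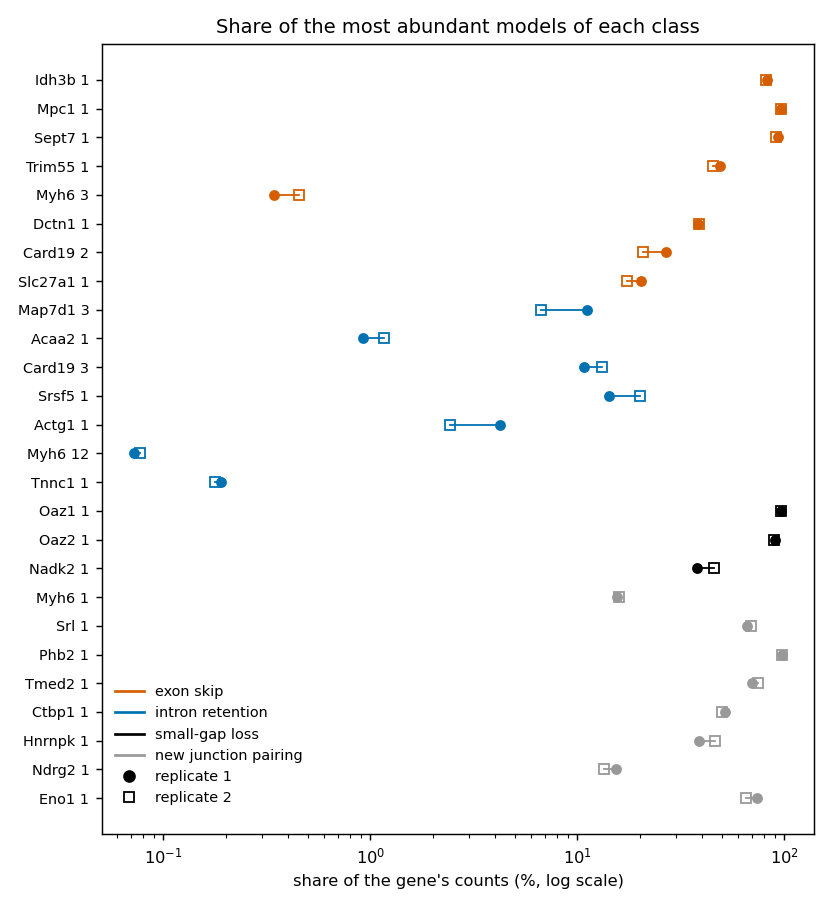
Share of the gene's counts (x, %, log scale) in replicate 1 (filled circles) and replicate 2 (open squares) for the most abundant members of each class, up to 8 per class and 1 per gene, labelled by gene and model number. Mpc1, Sept7, Oaz1, Oaz2 and Phb2 model 1 lie at the right edge, and the retentions of Myh6 and Tnnc1 at the left.

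Besides Myh6, 17 genes had at least 4 members. Art3, of the ADP-ribosyltransferase family, had 7, of which 5 differed at the 5′ end and 2 in several places, and they held 79.2% and 65.1% of Art3 counts. Mff, the mitochondrial fission factor, had 7 members that all differed inside the gene, together 49.9% ± 0.191 of its counts (n = 2). Dmpk, the myotonic dystrophy protein kinase, had 6 members that all differed inside the gene, 39.5% ± 1.41 together, led by model 1 with 81 and 88 counts. Atp2a2 had 6 members, yet only 1.66% ± 0.187 of its counts.

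Hnrnpk had 5 members with 58.8% ± 2.86 of its counts, Map7d1 5 with 54.1% ± 3.13, Slmap, a sarcolemma-associated protein, 5 with 70.0% ± 1.51, and Coro6, a coronin that binds actin, 4 with 69.8% ± 4.25. Kcng2, a potassium channel subunit, had 4 with 64.9% ± 3.54, and Tfpi, an inhibitor of blood coagulation, 4 with 66.3% ± 6.98. Eno3, the muscle enolase, had 5 with 7.13% ± 0.649 and Cd36, a fatty acid receptor, 4 with 23.7% ± 2.02. Ndrg2 had 4 with 23.1% ± 0.325, Dnm2, dynamin 2, 5 with 23.6% ± 0.566, Klc1, a kinesin light chain, 4 with 28.4% ± 3.19, and Ktn1, kinectin, 4 with 14.3% ± 3.22. Members could thus be the bulk of a gene or a trace of it.

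Members were found in 664 of 7525 genes with an annotated intron and at least 10 counts in each library (8.82%). The gene lists below had been drawn up with results of these data in view, and no count is tested. Sarcomere genes had a member in 15 of 45, among them Myoz2, the Z-disc protein myozenin 2, with 31 and 29 counts in model 1, and Nexn, the F-actin-binding nexilin, with 79 and 86 in model 1. Calcium handling genes had one in 5 of 23 (Srl, Atp2a2, Trdn, Asph and Camk2d, whose model 1 had 43 and 45 counts). Fatty acid oxidation genes had one in 8 of 30, with Eci2, an enoyl-CoA isomerase, at 74 and 74 counts in model 1. The tricarboxylic acid cycle had one in 6 of 25, glycolysis in 5 of 26, and nuclear oxidative phosphorylation in 11 of 81.

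Splicing regulators had a member in 10 of 45. They included Mbnl2, a muscleblind protein, with 153 and 158 counts in model 1 (75.3% ± 0.423 of its gene), and Rbm20, a regulator of titin splicing, with 10 and 14. Extracellular matrix genes had one in 4 of 34 and cytosolic ribosomal protein genes in 0 of 71. Across single genes, presence of a member rose with depth and with the number of annotated transcripts. A member was present in 4.08% of genes with a summed count of 20 to 100 and in 31.2% of those with 2000 or more, and in 0.906% of genes with 1 annotated multi-exon transcript and 16.8% of those with 10 or more. Median summed counts were 768 for the sarcomere list, 392 for calcium handling, 1350.5 for fatty acid oxidation and 2664 for the tricarboxylic acid cycle. They were 728 for glycolysis, 1662 for nuclear oxidative phosphorylation, 117 for splicing regulators, 169.5 for extracellular matrix and 252 for ribosomal proteins. Ordered by these medians, the lists were not in the order of their shares of genes with a member. The part of depth and annotation in the differences between lists was not tested.

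Each member was read from annotated start codons, taking a frame that gives an annotated protein where there was one and the longest frame otherwise. An annotated protein resulted in 345 members and another protein with an annotated stop codon in 308. A stop codon more than 50 bases before the last junction came in 111, another stop in 61, and no annotated start codon in 45. The frame was not closed or not readable in 29, and 2 lay in genes without a coding transcript. Of members differing at the 5′ end, 253 of 397 kept an annotated protein, against 49 of 314 of those inside the gene. An early stop was found in 18 of 29 retention members, 26 of 128 skips, 61 of 738 pairings and all 6 small-gap losses. Where a member lacks a very short exon that no count covers, as in Sept7, whose frame closed after 25 residues against 437 annotated, this reading depends on those bases.

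The libraries were compared by the share of a gene's counts each model had, with Fisher's exact test and Benjamini-Hochberg adjustment over 12222 models. The median log2 ratio of a member's share, replicate 1 over replicate 2, was 0.0051, the median size of the ratio was 0.31, and 841 of 901 members differed by less than 2-fold. Across members the Pearson correlation of log2 counts was 0.92, a description over 901 members that share depth, genes and the minimum of 5. Of 899 members tested, 1 was called, beside 0.131% of all models tested. Since a member had to reach 5 counts in each library, nothing is read from this. At an unadjusted p under 0.05 there were 38 members (4.23%), beside 5.27% of all models tested.

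The called member was Pdlim5 model 2, of a PDZ and LIM protein of the Z-disc. It had 55 counts of 370 in replicate 1 (14.9%, interval 11.4 to 18.9) and 25 of 415 in replicate 2 (6.02%, interval 3.94 to 8.76). The log2 ratio was 1.30 with an exact adjusted p of 0.0405. The call ended in the same exact test without a minimum count (adjusted p = 0.36), with multi-exon models alone in the denominator (adjusted p = 0.081) and with annotated models alone there (log2 ratio 0.05, adjusted p = 1). Its more abundant neighbour, Pdlim5 model 1, had 215 and 251 counts. The next smallest adjusted p-values belonged to Plin5 model 1, a lipid droplet protein, with 11 and 25 counts (0.421), Plekha1 model 1 with 9 and 23 (0.453), Myh6 model 2 (0.501) and Slu7 model 1, a splicing factor, with 34 and 19 (0.541), all by the same exact test. None of these 4 passed the threshold of 0.05.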

How the data were processed

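The values are whole-number counts of reads per transcript model, deposited by the authors without normalization, per the file headers, with the authors' own novelty class for each model. The deposited annotation holds GENCODE M21 transcripts on mm10, per the deposited readme, and gives TALON as the source of models outside it. Aligner and filters: not given in the sources used here. Exons of counted annotated transcripts were checked against GENCODE M21 in 37020 entries, each library entered separately, and none differed. Exonic sequence and coding starts were taken from that release.

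Annotated transcripts named for comparison are those with at least 1 intron. Models were matched between libraries by chromosome, strand and all introns, and shares are of all counts of the gene. Members were compared with the annotated transcript of the gene that shares most introns. A skip is an unannotated intron joining a donor and an acceptor of 1 annotated transcript over whole exons, and each member with several events took the first class in the order skip, retention, small gap. Protein lengths are set against the gene's annotated protein with the most counts, or the longest where none had counts. Junction counts sum every multi-exon model with that intron. Intervals are exact Clopper-Pearson intervals at 95%. The reads carry no stated molecular identifiers and may repeat a molecule, hence intervals and p-values cover counting error only. Models with a summed count of at least 10 and at least 1 other count of the gene in each library were tested by two-sided Fisher's exact test, a procedure tested on simulated data. The reported median-ratio scale of replicate 1 in an alternative was 0.971.

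The named members are, per class, up to 8 with the highest summed count and at most 1 per gene, those of genes with at least 4 members, the 5 smallest adjusted p-values, and the 5 largest shares in genes with at least 50 counts in each library. Members of the gene lists, of the very short exons and of the 3-base acceptors were added with their values in view. Of the members this rule names, 1 is not reported here. The members and all lists were chosen with earlier results of these data known. No correction was made for near-identical gene copies. Python 3.11.15, SciPy 1.17.1, NumPy 2.4.6, pandas 2.3.3 and matplotlib 3.10.9 were used.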

Additional observations from a re-analysis of the deposited data

How the results depend on the processing

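Of 43 alternative values of the main summaries, 26 stayed within 1.5 times the reported count or within the spread. With at least 3 counts in each library there were 1564 members (244 skips, 73 retentions, 1240 pairings) with a median share of 8.25%. With at least 10 there were 426 (45 skips, 14 retentions, 362 pairings) with a median share of 17.4%. A small-gap limit of 100 bases gave 11 small-gap losses. Members called between libraries were 0 without a minimum count, 0 with multi-exon models alone in the denominator and 0 with annotated models alone, and 8 of 901 with an exact binomial test of counts against library totals and 6 with median-ratio size factors, where 257 (2.0%) and 238 (1.85%) of all 12851 models were called. Chosen after seeing the data, skips with counts on both flanking junctions alone had a median skip percent of 8.55. The cause of these differences was not tested, apart from fewer or more models entering by construction. The only call among named members, Pdlim5 model 2, was lost in 3 of its 6 alternatives, at adjusted p-values of 0.36, 0.081 and 1 by Fisher's exact test. Leaving out a library was not possible, because membership needs both. No paired analysis was possible because there is 1 group. Depth limits members with counts near 5, whose shares have wide intervals.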

Other observations

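The authors' class of a chain was not always the same in both libraries. Among chains with at least 5 counts in each library, 65 were NIC in replicate 1 and NNC, a model with a splice site outside the annotation, in replicate 2, and 62 the other way round. The first group had 1590 and 1629 counts in all and the other 1425 and 1403. A further 18 chains were NIC in replicate 1 and ISM, a truncated match to an annotated transcript, in replicate 2, and 15 the other way round. The most abundant was a chain of Hacd1, an enzyme of very-long-chain fatty acid synthesis, with 264 and 254 counts, NIC in replicate 1 and NNC in replicate 2. These chains are not members, but their counts are part of the gene totals and of the junction counts.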
